A study of Mus musculus with 12 samples.

Results

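The response of TAZKo fibroblasts to 24 hours of hypoxia was examined by RNA sequencing, in read counts per gene. The 6 libraries were chosen by their titles from the 12 of the series: 3 of TAZKo cells kept in normoxia and 3 of TAZKo cells after 24 hours in a hypoxia workstation. The cells are mouse embryonic fibroblasts of the C57BL/6 strain, grown in DMEM with fetal bovine serum, and the 6 remaining libraries are WT fibroblasts of that strain handled alike, 3 in normoxia and 3 after 24 hours of hypoxia. TAZKo stands for a knockout of tafazzin, the mitochondrial enzyme that remodels the lipid cardiolipin and is encoded by Taz. The oxygen level, the way the knockout was made, the age of the embryos and whether the 3 samples of a group are separate cultures are not given in the sources used here. P-values therefore measure the spread between these samples, which may be technical.

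Cells sense oxygen through prolyl hydroxylases of the EGLN family, which need oxygen to mark the alpha subunits of the hypoxia-inducible factor (HIF) for capture by VHL and destruction. In low oxygen the alpha subunits escape, pair with ARNT and switch on genes for glucose use, acid export, vessel growth and matrix modification. In fibroblasts this program is known for moving energy supply from mitochondria to glycolysis and for changing how collagen is hydroxylated and crosslinked.

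The targeted gene was examined first. Taz (ENSMUSG00000009995, chromosome X from 74281912 to 74290151 in GRCm38) stood at 45.8, 39.8 and 41 CPM in normoxia and 33.6, 32.8 and 35.1 CPM in hypoxia. The same gene stood at 38, 33.2 and 32.7 CPM in WT normoxia and 25.5, 26.4 and 23.5 CPM in WT hypoxia. Every library labelled TAZKo lay above every WT library of its condition, so the counts do not show a lost Taz transcript, and whether the transcript is intact cannot be read from them. The samples are therefore called the libraries labelled TAZKo, or TAZKo libraries for short. Within them Taz fell in hypoxia (log2 change -0.32, SE 0.079, edgeR adjusted p = 0.00434), with no overlap between the groups.

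Total counts in the 6 libraries ran from 21067653 to 31204510, and 3 counts, used here as the floor of detection for counting error only, were worth 0.0961 to 0.142 CPM, the read count scaled to a common library size with TMM factors. Of 12 fibroblast markers, 9 passed the filter on low counts, with summed levels of 10900 to 11800 CPM in normoxia and 11400 to 12300 CPM in hypoxia. Fap and Twist1 were at 0 in all 6 libraries and Thy1 had at most 8 counts in any of them. Macrophage markers summed to 12 to 12.6 CPM in normoxia and 16.7 to 19.1 CPM in hypoxia with Adgre1 at 0, and endothelial markers to 4.84 to 6.37 CPM and 3.01 to 3.98 CPM. Epithelial markers summed to 197 to 212 CPM in normoxia and 256 to 258 CPM in hypoxia, nearly all of it Krt14 and Krt18. Their part in the results below was not tested, and in bulk samples fewer cells of a type and less RNA per cell cannot be told apart.

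Hypoxia changed a large share of the transcriptome, with increases larger than decreases. At an adjusted p under 0.05 in edgeR's quasi-likelihood test, 6310 of 14408 genes tested (43.8%) passed, of which 3195 rose (22.2% of genes tested) and 3115 fell (21.6%). Without adjustment 7289 genes (50.6%) had a p under 0.05. Most of the changes were small: 3231 were under 0.5 on the log2 scale and 1860 lay between 0.5 and 1. At 2-fold or more, 922 genes rose (6.4%) and 297 fell (2.06%), and at 4-fold or more 265 rose and 46 fell. The median log2 change over all genes tested was -0.01. With counts scaled by library size alone, 2469 genes rose and 4402 fell, so the share of calls that rose was 35.9% in place of 50.6%. The groups did not overlap for 61.1% of genes tested, with all 3 hypoxia values above all 3 normoxia values for 30.3% and below them for 30.9%.

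**Figure D1:**
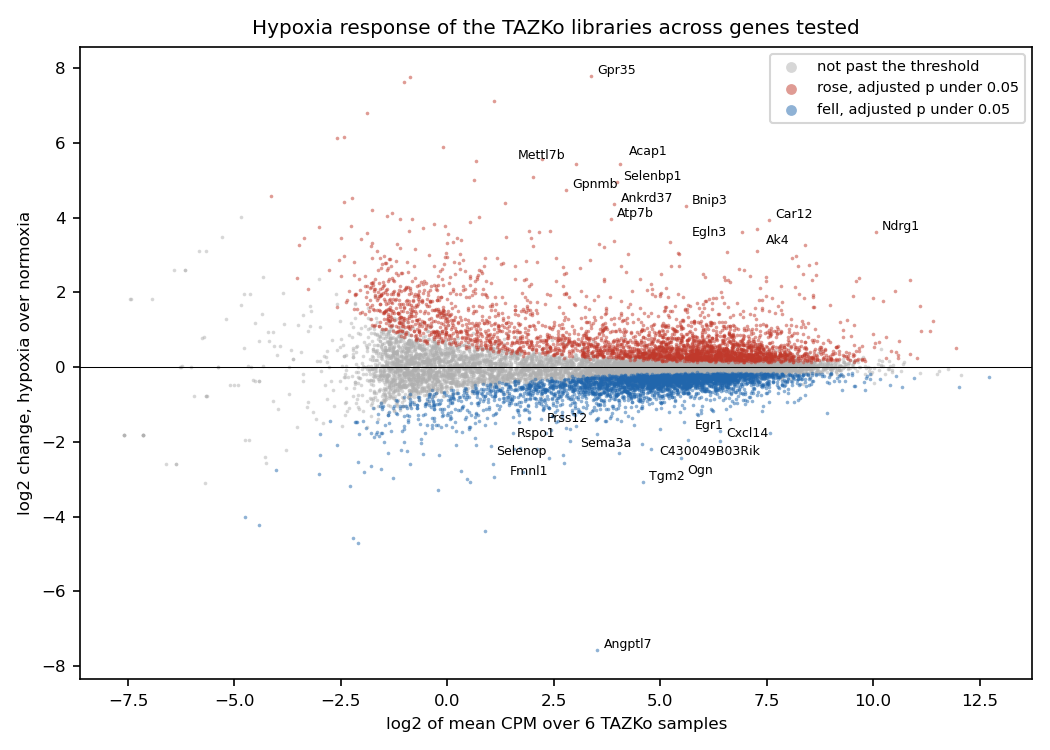
Log2 change between hypoxia and normoxia against the log2 of mean CPM over the 6 TAZKo libraries. Each point is 1 gene tested, red where it rose and blue where it fell at an adjusted p under 0.05, and 9 genes with 0 counts in all 6 libraries are not drawn. At 16-fold or more 26 genes rose and 6 fell, Angptl7 among the latter. Fitted values of genes with very few counts depend on the prior count of the fit.

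Lane and condition overlapped in part. By the file names, lane 4 holds 1 hypoxia and 2 normoxia TAZKo libraries and lane 5 the reverse, so within a lane some groups hold 1 library, which is assumed to vary like the others. With lane as a covariate 6275 genes passed, in lane 5 alone 6469 and in lane 4 alone 1006. Of the 6310 genes, 6308 had the same direction in lane 4 and 6310 in lane 5. These genes were called from the same libraries, so their direction within a lane is no independent check.

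Part of the count of large increases came from copies of glycolytic genes. Processed pseudogenes, intronless copies made from messenger RNA, made up 479 of the genes tested, and 136 of them (28.4%) rose at least 2-fold. Of these 136, 99 share at least 1 word of 50 bases with Gapdh, the glycolytic enzyme glyceraldehyde-3-phosphate dehydrogenase, and 104 with any member of the glycolysis or lactate lists. Without processed pseudogenes 786 genes rose at least 2-fold (5.64% of 13929 tested). How the authors' counting treated reads that match several genes is not given in the sources used here, so the counts of such copies and of their parents are uncertain.

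HIF is known to bind DNA at a core of ACGTG or GCGTG. The windows from 250 bases before to 50 after the start of 4 genes that rose are shown because each holds ACGTG and each stands for a program described below: lactate production, mitochondrial turnover, collagen hydroxylation and oxygen sensing. The 4 were chosen after the matches had been seen. Sequences are from RefSeq on GRCm38.p6, written 5′ to 3′ on the gene's strand, with every match to ACGTG on either strand (ACGTG or CACGT) in capitals. CACGTG holds a match on each strand.
Ldha (chr7:46845554-46845853, plus strand): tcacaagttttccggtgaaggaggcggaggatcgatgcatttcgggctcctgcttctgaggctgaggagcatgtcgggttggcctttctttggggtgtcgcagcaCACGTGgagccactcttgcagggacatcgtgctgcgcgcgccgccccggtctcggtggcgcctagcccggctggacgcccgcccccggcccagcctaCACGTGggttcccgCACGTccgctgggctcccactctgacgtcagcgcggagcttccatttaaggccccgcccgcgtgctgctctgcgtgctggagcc
Bnip3 (chr7:138909457-138909756, minus strand): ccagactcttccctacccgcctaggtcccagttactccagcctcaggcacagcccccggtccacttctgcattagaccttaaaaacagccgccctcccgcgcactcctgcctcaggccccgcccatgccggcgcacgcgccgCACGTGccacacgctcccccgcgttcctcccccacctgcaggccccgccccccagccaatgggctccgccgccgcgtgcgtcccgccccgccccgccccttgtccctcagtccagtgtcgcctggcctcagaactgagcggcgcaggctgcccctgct
P4ha2 (chr11:54100674-54100973, plus strand): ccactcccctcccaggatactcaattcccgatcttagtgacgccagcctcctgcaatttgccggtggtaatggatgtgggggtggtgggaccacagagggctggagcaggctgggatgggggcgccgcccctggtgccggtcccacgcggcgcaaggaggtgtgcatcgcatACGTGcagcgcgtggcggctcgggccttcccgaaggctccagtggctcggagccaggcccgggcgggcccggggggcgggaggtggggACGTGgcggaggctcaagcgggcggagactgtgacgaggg
Egln1 (chr8:124949205-124949504, minus strand): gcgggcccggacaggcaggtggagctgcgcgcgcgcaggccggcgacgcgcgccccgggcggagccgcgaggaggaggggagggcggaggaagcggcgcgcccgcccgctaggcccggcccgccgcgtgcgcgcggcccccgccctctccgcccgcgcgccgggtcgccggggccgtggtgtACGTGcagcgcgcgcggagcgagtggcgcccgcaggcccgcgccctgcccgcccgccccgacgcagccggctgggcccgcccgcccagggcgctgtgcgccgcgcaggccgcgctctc

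Over both strands the Ldha window holds 5 matches, that of Bnip3 2, that of P4ha2 2 and that of Egln1 1. Across the genes tested with a window in the table, 2664 of 10300 (25.9%) hold ACGTG on either strand in their first listed window. The share was 28.8% of 524 genes that rose at least 2-fold, 32.7% of 153 that rose at least 4-fold, 30.8% of 1744 that rose less than 2-fold, 25.7% of 5622 not past the threshold and 22.0% of 2410 that fell. GCGTG was in 51.8% of all windows tested and in 41.2% of those of genes that rose at least 2-fold, whose windows also held fewer CpG dinucleotides (median 12 against 21). Genes that fell at least 2-fold had low values too, with GCGTG in 36.4% of 195 windows and a median of 14 CpG dinucleotides. ACGTG was in 17.9% of these 195 windows. The first windows of Car12, Gbe1 and Vegfa, which rose, hold neither. A match is a description of the letters in these 300 bases only.

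Among the genes of oxygen sensing, both inducible prolyl hydroxylases rose strongly, and Vhl and Cited2 rose to a lesser degree. Of 10 members tested, 6 rose and 2 fell, with a median log2 change of 0.50. Egln3 (ENSMUSG00000035105, chromosome 12 from 54178981 to 54203860) stood at 17.8, 17.9 and 18.9 CPM in normoxia and 227, 225 and 217 CPM in hypoxia. The lowest hypoxia library was far above the highest normoxia library, a 12.2-fold rise (log2 change 3.61, SE 0.073, edgeR adjusted p = 5.88e-14). Egln1, the main oxygen sensor of the family, stood at 63.8, 69.9 and 65 CPM in normoxia and 536, 532 and 489.8 CPM in hypoxia, a 7.84-fold rise (log2 change 2.97, SE 0.062, edgeR adjusted p = 7e-14). Egln2, the third prolyl hydroxylase, had a log2 change of 0.15 (edgeR adjusted p = 0.162) and did not pass. Vhl, the ubiquitin ligase subunit that captures hydroxylated HIF, rose by 1.12 on the log2 scale, and Cited2, which competes with HIF for its coactivators, by 1.13. Hif1a, the HIF-1 alpha subunit itself, stood at 162, 211 and 203 CPM in normoxia and 264, 273 and 279 CPM in hypoxia (log2 change 0.51, SE 0.15, edgeR adjusted p = 0.017). The groups did not overlap, but normoxia library 1 was lower than the other 2, and without it the log2 change was 0.40 with an edgeR adjusted p = 0.0593. Its partner Arnt fell (-0.30), while the brain-type partner Arnt2 rose (0.50). Epas1, the HIF-2 alpha subunit, had a log2 change of 0.05 (edgeR adjusted p = 0.669).

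Glycolytic enzyme genes rose together. Of 17 glycolytic enzyme genes tested, 16 rose and 0 fell, with a median log2 change of 1.79, against 22.2% rising and a median of -0.01 over all genes. Of 5 glucose transporter genes tested, 2 rose and 2 fell. Slc2a1, the main glucose transporter of fibroblasts, stood at 130.1, 124 and 119 CPM in normoxia and 710.2, 706 and 632 CPM in hypoxia (log2 change 2.46, SE 0.087, edgeR adjusted p = 2.29e-11). Hk2, the inducible hexokinase that traps glucose in the cell, stood at 33.8, 36.6 and 31 CPM in normoxia and 160.2, 171 and 161 CPM in hypoxia (log2 change 2.28, SE 0.077, edgeR adjusted p = 1.42e-11). In neither gene did the groups come near each other. Of the phosphofructokinases, which catalyse the committed step, Pfkp rose by 2.34 and Pfkl by 2.30 on the log2 scale, whereas the muscle form Pfkm had a log2 change of 0.01 (edgeR adjusted p = 0.91). The aldolases Aldoc and Aldoa rose by 2.62 and 1.77, Gpi1 by 1.60 and Tpi1 by 1.85. Pgk1, the first ATP-making enzyme of the path, stood at 33.6, 29.8 and 31.4 CPM in normoxia and 171, 164 and 147 CPM in hypoxia (log2 change 2.34, SE 0.083, edgeR adjusted p = 2.29e-11). The lowest hypoxia library was several times the highest normoxia library. Gapdh (1.79), Eno1 (1.91), Pgam1 (1.61) and Pkm (1.63) also rose. These genes share reads with copies elsewhere: 68% of the 50-base words of Pgk1, 72.2% of Eno1, 41.5% of Pgam1, 34.4% of Pkm and 27.8% of Gapdh also occur in another annotated gene.

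At the end of glycolysis Ldha and Pdk1 rose, and members of their families went different ways. Of 13 genes tested in the list of glycolysis control and lactate, 5 rose and 2 fell (median 0.26 on the log2 scale). The shares were 38.5% and 15.4%, against 22.2% and 21.6% of all genes tested. Ldha, the lactate dehydrogenase subunit that favours lactate, stood at 655, 638 and 556 CPM in normoxia and 3228, 3237 and 2913 CPM in hypoxia (log2 change 2.34, SE 0.087, edgeR adjusted p = 3.75e-11). Ldhb, the other subunit, was at or near the floor. Pdk1, which phosphorylates and inactivates pyruvate dehydrogenase, stood at 94.6, 96.2 and 94.7 CPM in normoxia and 638, 646 and 605 CPM in hypoxia (log2 change 2.73, SE 0.058, edgeR adjusted p = 8.58e-14). Its paralog Pdk2 stood at 21.8, 21.5 and 22.8 CPM in normoxia and 10.3, 10.5 and 10.1 CPM in hypoxia and fell (log2 change -1.10, SE 0.105, edgeR adjusted p = 1.1e-06), so the kinases of this family moved in opposite directions with no overlap between groups in either gene. Pdk3 rose by 0.51 on the log2 scale and Pdk4 had a value of 0.26 (edgeR adjusted p = 0.157). Of the enzymes that make or break the glycolytic activator fructose 2,6-bisphosphate, Pfkfb3 rose (0.36) and Pfkfb4 fell (-0.32).

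**Figure D2:**
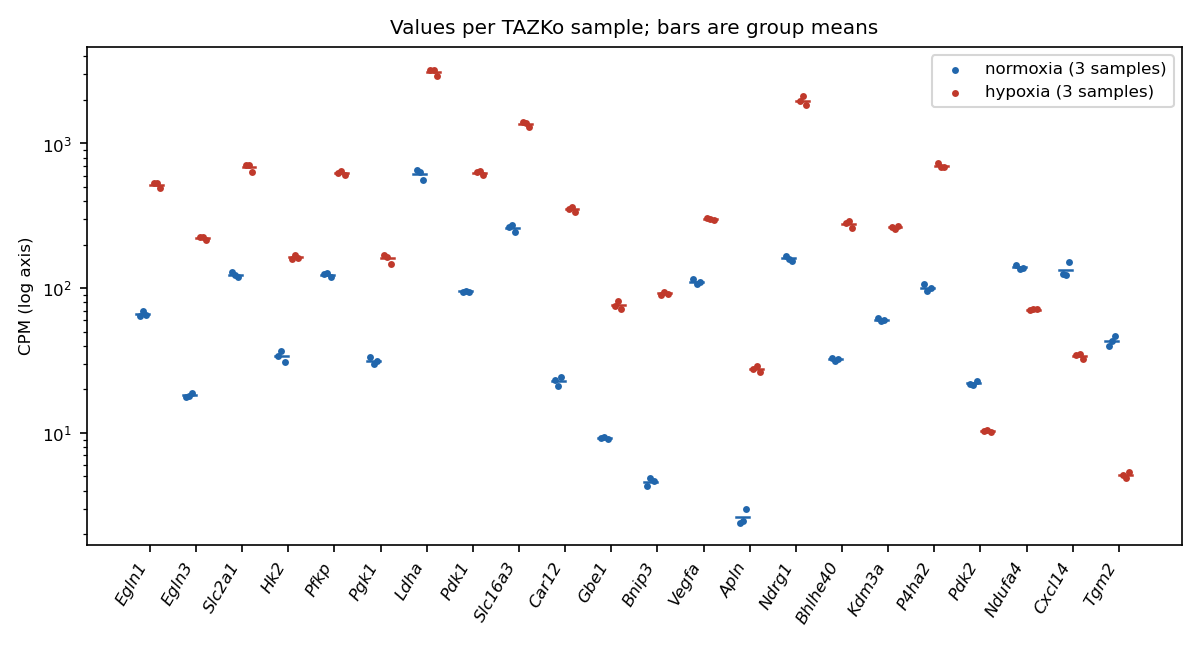
CPM on a log axis in each of the 3 normoxia (blue) and 3 hypoxia (red) TAZKo libraries for 22 genes described in the text, with bars at group means. The spread within a group is small against the distance between groups in each gene drawn. The last 4 genes, Pdk2, Ndufa4, Cxcl14 and Tgm2, are lower in hypoxia.

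Lactate and acid export rose as well. Slc16a3, the monocarboxylate transporter that carries lactate out of glycolytic cells, stood at 267, 273 and 244 CPM in normoxia and 1400, 1392 and 1291 CPM in hypoxia (log2 change 2.38, SE 0.085, edgeR adjusted p = 2.63e-11), and its chaperone Bsg rose by 2.04 on the log2 scale. Car12, a cell-surface carbonic anhydrase, stood at 23.3, 21.1 and 24.4 CPM in normoxia and 353, 365 and 334 CPM in hypoxia, a 15.3-fold rise (log2 change 3.93, SE 0.075, edgeR adjusted p = 4.61e-14). Slc4a4, a bicarbonate importer, rose by 1.72. Car9, the carbonic anhydrase best known for hypoxia, stood at 4.8, 3.51 and 4.17 CPM in normoxia and 5.25, 4.53 and 5.4 CPM in hypoxia and did not pass (log2 change 0.28, SE 0.152, edgeR adjusted p = 0.158). Of 13 genes in this list, 6 rose and 1 fell (46.2% and 7.69%), against 22.2% and 21.6% of all genes tested.

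Genes of glycogen making rose while a gene of glycogen breakdown fell. Gbe1, the branching enzyme, stood at 9.21, 9.32 and 9.12 CPM in normoxia and 75, 82 and 72 CPM in hypoxia (log2 change 3.05, SE 0.099, edgeR adjusted p = 9.29e-12). Pgm1, which links glucose 6-phosphate to glycogen, stood at 79.1, 81.7 and 79.5 CPM in normoxia and 530.5, 539 and 499.8 CPM in hypoxia (log2 change 2.71, SE 0.059, edgeR adjusted p = 9.7e-14). Gys1, the glycogen synthase of most tissues, rose by 1.96 on the log2 scale, and Ppp1r3b, which brings a phosphatase to glycogen, by 1.76. Pygb, the phosphorylase that breaks glycogen down, stood at 131, 127 and 137 CPM in normoxia and 84.9, 83.3 and 80.4 CPM in hypoxia and fell (log2 change -0.67, SE 0.069, edgeR adjusted p = 2.54e-06). The glycogen list held 8 rising and 2 falling genes of 13 tested (61.5% and 15.4%), against 22.2% and 21.6% of all genes tested.

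Nuclear genes of mitochondrial metabolism fell far more often than they rose, mostly by small amounts. Of 34 genes of pyruvate entry and the tricarboxylic acid cycle, 20 fell and 4 rose (median -0.28 on the log2 scale). For the nuclear subunits of complex I the counts were 19 falling and 1 rising of 36 (median -0.26), and for complexes III to V 20 and 2 of 39 (median -0.21). The mitochondrial ribosome had 40 falling and 4 rising of 76 (median -0.23), and fatty acid oxidation 16 and 1 of 23 (median -0.30). Over all genes tested 21.6% fell. In lane 4 alone, where few genes passed, medians of these 5 lists ran from -0.32 to -0.23.

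Individual members differed in size. In the cycle, Suclg2 fell by a log2 change of -0.93, the succinate dehydrogenase subunit Sdhc by -0.67 and fumarase, Fh1, by -0.60. Against this, the malic enzyme Me2, which makes pyruvate from malate, rose from a mean of 126 to 337 CPM (log2 1.42), and the cytosolic isocitrate dehydrogenase Idh1 rose by 0.86. Ndufa4, a subunit of cytochrome oxidase, stood at 145, 136 and 138 CPM in normoxia and 70.4, 71.7 and 71.5 CPM in hypoxia (log2 change -0.97, SE 0.062, edgeR adjusted p = 1.76e-08). The 3 hypoxia libraries lay close together, far below every normoxia library. Ndufv3 was the only complex I subunit of the list that rose, standing at 56, 53.3 and 60.3 CPM in normoxia and 142, 141 and 149 CPM in hypoxia (log2 change 1.35, SE 0.083, edgeR adjusted p = 1.18e-08). Ppargc1b, a coactivator that drives mitochondrial gene expression, fell by a log2 change of -1.18, and in fatty acid oxidation Cpt2, Hadh, Echs1 and Acads fell by log2 changes of -0.59, -0.60, -0.63 and -0.64. Within complex I the log2 changes ran from -0.58 to 1.35, and within complexes III to V from -0.97 to 1.27.

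Proteins encoded on mitochondrial DNA could be followed for 7 of 13 genes. None rose and 2 fell (28.6%, against 21.6% of all genes tested). They were mt-Cytb, from 4870 to 3400 CPM (log2 -0.52), and mt-Nd4, from 896 to 632 CPM (log2 -0.50). Of the 50-base words of mt-Nd4, 62.2% also occur in another annotated gene, so its count is uncertain, while none of those of mt-Cytb do. Without TAZKo normoxia library 3 the change of mt-Nd4 did not pass (edgeR adjusted p = 0.0516). Of the genes not tested, mt-Co2, mt-Co3, mt-Atp6, mt-Atp8 and mt-Nd4l are listed at 0 and mt-Nd3 had at most 5 counts in a library.

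Bnip3, Bnip3l and Higd1a rose by over 2 on the log2 scale, while most other genes of the mitophagy list did not pass. Bnip3 (ENSMUSG00000078566, chromosome 7 from 138890836 to 138909519), a receptor that marks mitochondria for autophagy, stood at 4.29, 4.85 and 4.64 CPM in normoxia and 89.8, 94.6 and 91.6 CPM in hypoxia, a 20-fold rise (log2 change 4.32, SE 0.08, edgeR adjusted p = 4.61e-14). Its paralog Bnip3l stood at 71.2, 88.5 and 89.6 CPM in normoxia and 381, 384 and 360.3 CPM in hypoxia (log2 change 2.17, SE 0.163, edgeR adjusted p = 1.08e-06), and Higd1a, a small protein of the respiratory chain grouped here by its known hypoxia response, at 19.1, 20.8 and 19.9 CPM in normoxia and 174, 162 and 171 CPM in hypoxia (log2 change 3.08, SE 0.071, edgeR adjusted p = 1.61e-13). Of their 50-base words, 62.4%, 23.4% and 36.6% recur in another annotated gene. The adaptors Sqstm1 and Optn rose by 0.74 and 0.69, while Pink1 (0.07) and Fundc1 (-0.13) did not pass. In all 5 of 13 genes rose (38.5%) and 0 fell, against 22.2% and 21.6% of all genes tested. In the cardiolipin pathway, to which Taz belongs, Prelid1, a carrier of its precursor, rose from a mean of 138 to 272 CPM (log2 0.98), and Taz and Hadha fell by log2 changes of -0.32 and -0.37.

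Among antioxidant genes, 7 rose and 13 fell of 32 (21.9% and 40.6%), against 22.2% and 21.6% of all genes tested. The falls included the mitochondrial peroxidase Prdx3, which stood at 115, 115 and 118 CPM in normoxia and 61.4, 62.4 and 64 CPM in hypoxia (log2 change -0.89, SE 0.063, edgeR adjusted p = 5.43e-08). Mitochondrial thioredoxin, Txn2, fell by a log2 change of -0.49 and manganese superoxide dismutase, Sod2, by -0.46. The secreted superoxide dismutase Sod3 stood at 19.6, 17.2 and 15.5 CPM in normoxia and 69.3, 67.9 and 66.1 CPM in hypoxia and rose (log2 change 1.96, SE 0.168, edgeR adjusted p = 2.14e-06). Among iron genes the transferrin receptor Tfrc, the main route of iron uptake, stood at 145, 180.4 and 154 CPM in normoxia and 636, 573 and 609 CPM in hypoxia (log2 change 1.92, SE 0.191, edgeR adjusted p = 1.68e-05). Ferritin heavy chain, Fth1, which stores iron, stood at 1025, 989 and 987 CPM in normoxia and 763, 754 and 742 CPM in hypoxia and fell (log2 change -0.41, SE 0.059, edgeR adjusted p = 6.58e-05). The metallothioneins Mt1 and Mt2 rose by 1.80 and 1.27.

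**Figure D3:**
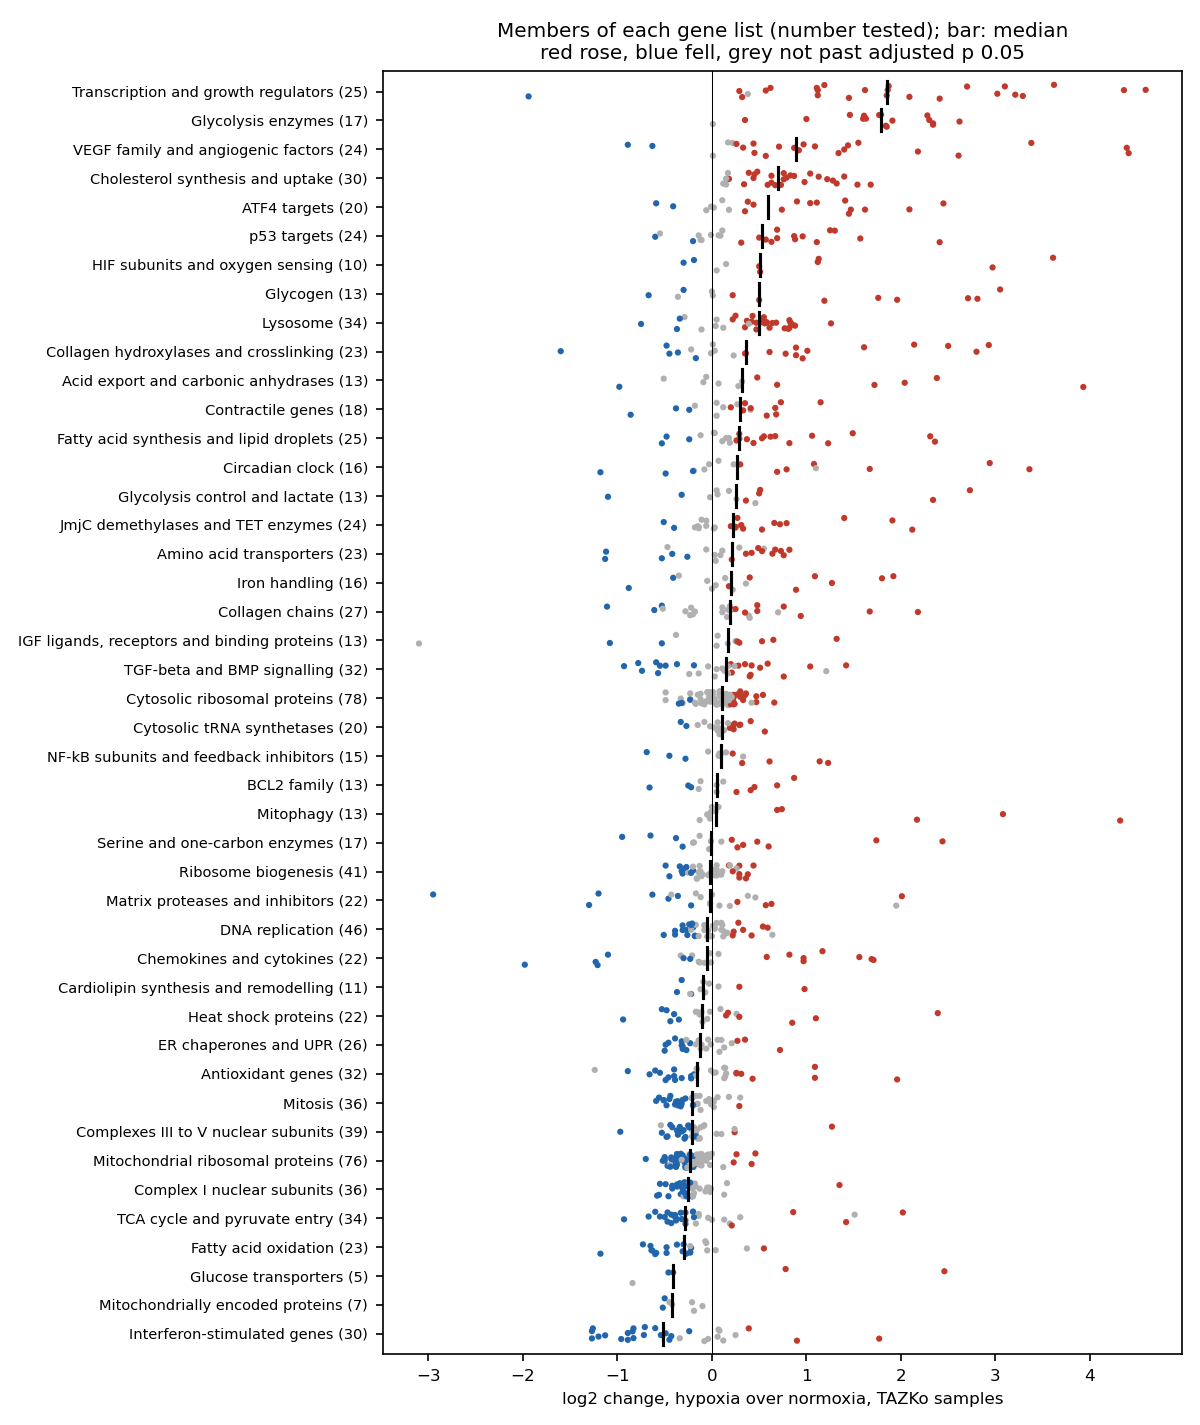
Log2 change between hypoxia and normoxia of every tested member of each gene list in the TAZKo libraries, with the list's median as a bar. Glycolysis, the angiogenic factors and the transcription and growth regulators lie furthest right, and the mitochondrial and interferon-stimulated lists lie left of 0. Fitted values of genes with very few counts, such as the leftmost point of the IGF list and the rightmost of the regulators, depend on the prior count.

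Genes of the VEGF family and other angiogenic factors, receptors included, mostly rose. Of 24 tested, 19 rose and 2 fell (median 0.89 on the log2 scale), against 22.2% and 21.6% of all genes tested. Vegfa, the central angiogenic ligand, stood at 116, 106 and 111 CPM in normoxia and 308, 301 and 295 CPM in hypoxia (log2 change 1.44, SE 0.089, edgeR adjusted p = 1.27e-08). The other ligands Vegfd, Pgf, Vegfb and Vegfc rose by 1.40, 1.34, 0.97 and 0.57. Apln, a peptide that acts on vessel cells, stood at 2.4, 2.47 and 3 CPM in normoxia and 27.6, 28.9 and 26.4 CPM in hypoxia, a 10.4-fold rise (log2 change 3.38, SE 0.148, edgeR adjusted p = 2.28e-10). Of the receptors, Flt1, which can also act as a soluble trap for VEGF, rose by 1.55 and Nrp1, a coreceptor, by 0.33. The growth factor Fgf2 stood at 3.28, 3.55 and 4.26 CPM in normoxia and 1.6, 2.25 and 2.09 CPM in hypoxia and fell (log2 change -0.89, SE 0.219, edgeR adjusted p = 0.0042).

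The list of transcription and growth regulators known for hypoxia was chosen with earlier results of these data known. Over all genes tested 22.2% rose and 21.6% fell, and these regulators had 23 rising and 1 falling of 25 genes (median 1.85). Stc1, a secreted glycoprotein hormone, is among them with 0 counts in the normoxia libraries and at most 4 in a hypoxia library. With members averaging at least 1 CPM over the 6 libraries the counts were 20 and 1 of 22 and the median 1.65. Ndrg1, a stress-response gene that is a common marker of hypoxia, stood at 167, 160.1 and 155 CPM in normoxia and 1973, 2114 and 1838 CPM in hypoxia, a 12.3-fold rise (log2 change 3.62, SE 0.068, edgeR adjusted p = 4.61e-14). Bhlhe40 and Bhlhe41, repressors that act on clock and growth genes, rose by 3.10 and 3.21. Mxi1, an antagonist of MYC, rose by 1.87 and Ddit4, an inhibitor of the growth kinase complex mTORC1, by 1.86. Cdkn1a, which encodes the cell-cycle inhibitor p21, stood at 26.9, 30.6 and 27.8 CPM in normoxia and 162, 152 and 142 CPM in hypoxia (log2 change 2.41, SE 0.097, edgeR adjusted p = 8.21e-11). Egr1, an immediate early gene of growth factor signalling, was the member that fell, standing at 62.7, 80.6 and 98 CPM in normoxia and 20.4, 21.5 and 20.8 CPM in hypoxia (log2 change -1.94, SE 0.188, edgeR adjusted p = 8.61e-06). The normoxia libraries varied more among themselves than the hypoxia libraries, yet the groups did not overlap.

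In the clock, repressors and outputs moved unevenly. Ciart, a repressor of the core clock activators, stood at 6.73, 8.02 and 5.35 CPM in normoxia and 68.3, 68.9 and 66.6 CPM in hypoxia (log2 change 3.36, SE 0.118, edgeR adjusted p = 2.29e-11). Nfil3, Cry1, Arntl and Per1 rose by 1.67, 1.08, 0.79 and 0.69, while Per3 stood at 30.7, 28.9 and 33.4 CPM in normoxia and 12.9, 14.6 and 13.5 CPM in hypoxia and fell (log2 change -1.18, SE 0.077, edgeR adjusted p = 2.21e-08). Clock (0.07) and Per2 (-0.08) did not pass. A single time point gives no view of the rhythm.

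Enzymes that need oxygen to remove methyl groups from chromatin rose more often than they fell: 13 and 2 of 24, or 9 and 6 with counts scaled by library size alone. The shares in the main fit were 54.2% and 8.33%, against 22.2% and 21.6% of all genes tested. Kdm3a, which demethylates histone H3 lysine 9, stood at 62.1, 59.3 and 60.6 CPM in normoxia and 266, 257 and 268 CPM in hypoxia (log2 change 2.12, SE 0.058, edgeR adjusted p = 1.9e-12). Jmjd6 rose by 1.91, Kdm4b by 1.40 and Tet2, which oxidises methylated DNA, by 0.72. Kdm4a, a close paralog of Kdm4b, had a log2 change of -0.15 (edgeR adjusted p = 0.0573).

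Collagen-modifying enzymes rose while the collagen chains themselves were mixed. Of 23 modifying genes, 13 rose and 5 fell (median 0.36), against 22.2% and 21.6% of all genes tested. P4ha2, a prolyl 4-hydroxylase subunit needed for stable collagen, stood at 106, 96.1 and 99.7 CPM in normoxia and 734, 690.3 and 684 CPM in hypoxia (log2 change 2.80, SE 0.078, edgeR adjusted p = 1.96e-12). P4ha1 rose by 1.61, P4hb, the shared partner subunit, by 0.96, and the rare form P4ha3 stood at 1.98, 1.65 and 1.27 CPM in normoxia and 0.535, 0.381 and 0.662 CPM in hypoxia and fell (log2 change -1.60, SE 0.233, edgeR adjusted p = 6.74e-05). Plod2, the lysyl hydroxylase of collagen ends that sets the kind of crosslink, stood at 93.8, 112 and 110.2 CPM in normoxia and 474, 451 and 469 CPM in hypoxia (log2 change 2.14, SE 0.11, edgeR adjusted p = 2.77e-09). Plod1 and Plod3 rose by 0.61 and 0.35. Loxl2, a lysyl oxidase that forms the crosslinks, stood at 96.7, 95.3 and 101 CPM in normoxia and 547, 576 and 531 CPM in hypoxia (log2 change 2.50, SE 0.066, edgeR adjusted p = 1.14e-12), though 45.8% of its 50-base words also occur in another annotated gene. Lox and Loxl4 rose by 0.89 and 0.89, and Loxl3 fell by a log2 change of -0.45. Ero1l, the oxidase that recharges disulfide formation in the endoplasmic reticulum, stood at 62.7, 66.8 and 60.8 CPM in normoxia and 504, 499 and 452 CPM in hypoxia (log2 change 2.93, SE 0.094, edgeR adjusted p = 8.47e-12), while the collagen chaperone Serpinh1 stood at 1546, 1616 and 1559 CPM in normoxia and 1134, 1124 and 1128 CPM in hypoxia and fell (log2 change -0.48, SE 0.067, edgeR adjusted p = 4.78e-05).

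**Figure D4:**
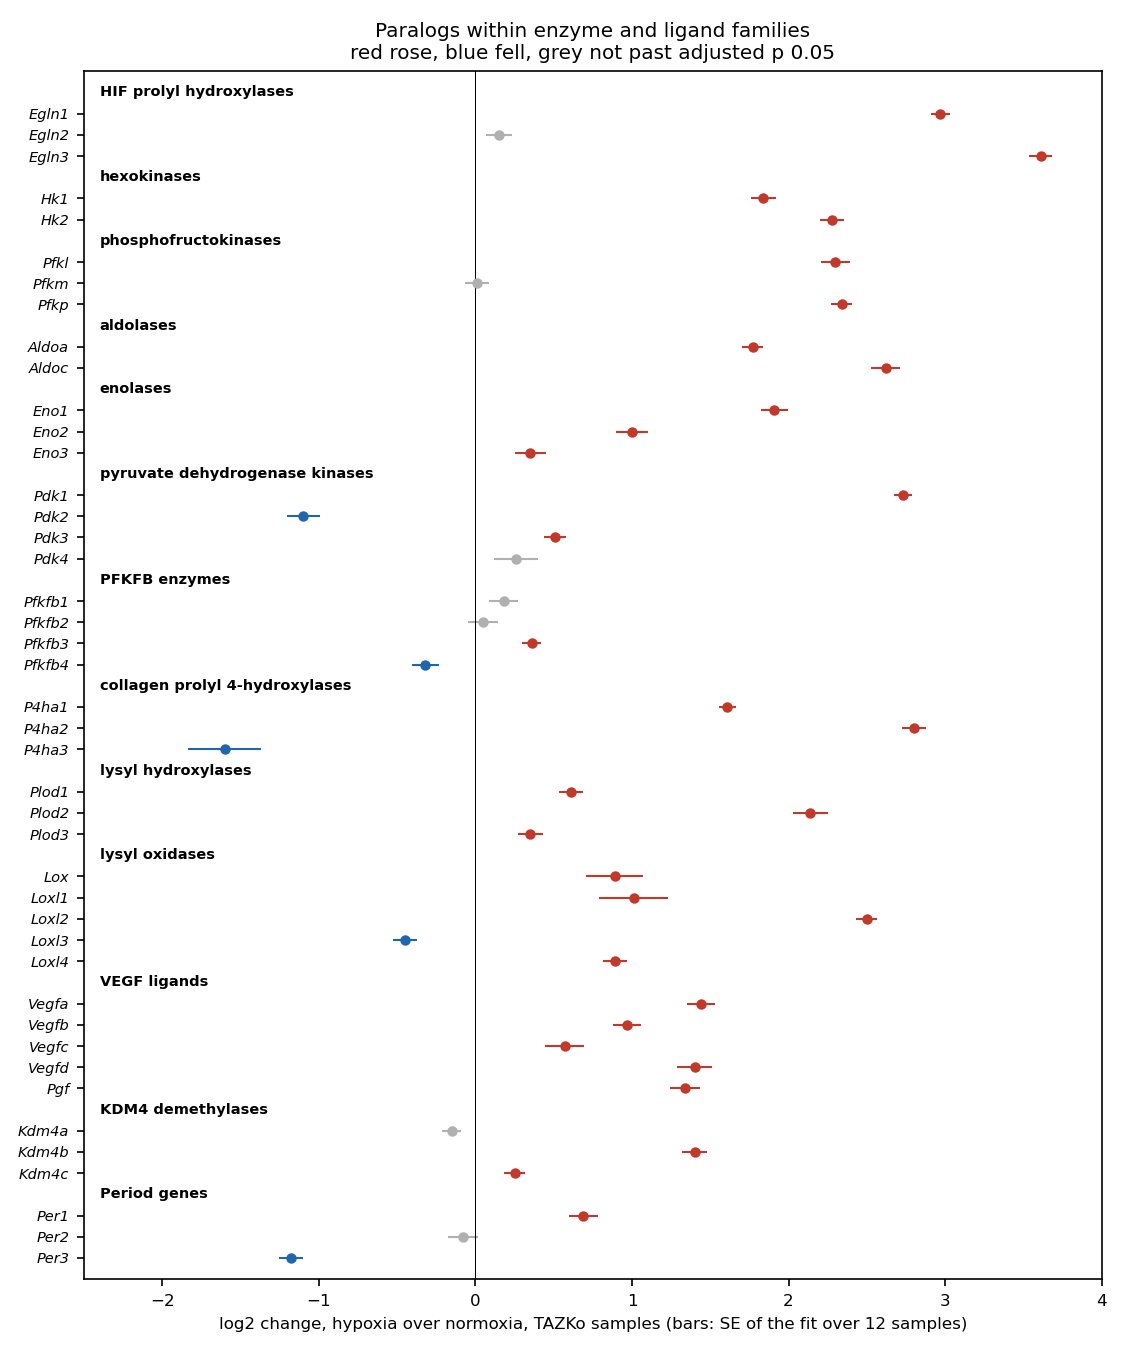
Log2 change between hypoxia and normoxia with its standard error (edgeR fit over 12 libraries) for paralogs within 13 families in the TAZKo libraries. Egln2, Pfkm and Kdm4a lie near 0 beside paralogs that rose, and Pdk2, Pfkfb4, P4ha3, Loxl3 and Per3 fell beside paralogs that rose.

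Of 27 collagen chains, 9 rose and 3 fell, but with counts scaled by library size alone 4 rose and 5 fell, so no direction is given for the family. Col7a1, the anchoring fibril chain, rose from a mean of 3.89 to 12.2 CPM (log2 1.67), Col16a1 by 0.76 and Col12a1 by 0.48. The microfibrillar chains Col6a1 and Col6a2 fell by log2 changes of -0.53 and -0.61, and Col8a2 stood at 40.5, 38.1 and 42.9 CPM in normoxia and 21.7, 17.9 and 17.2 CPM in hypoxia and fell (log2 change -1.11, SE 0.158, edgeR adjusted p = 0.000122). Col3a1, a main fibrillar chain, had a log2 change of -0.20 (edgeR adjusted p = 0.0723). Among 22 proteases and inhibitors 4 rose and 7 fell (18.2% and 31.8%), against 22.2% and 21.6% of all genes tested. Mmp9, a gelatinase, stood at 3.83, 3.16 and 4.39 CPM in normoxia and 0.68, 0.381 and 0.453 CPM in hypoxia (log2 change -2.95, SE 0.24, edgeR adjusted p = 2.27e-07). Adamts10 fell by a log2 change of -1.20, the membrane-bound collagenase Mmp14 by -0.46, and the inhibitor Timp3 rose by 0.57. Tgm2, a transglutaminase that crosslinks matrix proteins, stood at 39.8, 43 and 46.9 CPM in normoxia and 5.15, 4.84 and 5.33 CPM in hypoxia, 8.47-fold lower in hypoxia (log2 change -3.08, SE 0.26, edgeR adjusted p = 5.2e-06). Of 18 contractile genes 9 rose, among them Tpm4 (0.67), Zyx (0.58) and Ccn2 (0.73), and 3 fell, among them Acta2, the smooth muscle actin of activated fibroblasts (-0.86). In lane 4 alone none of the 9 passed.

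Cell division genes fell slightly. Of 36 mitotic genes, 20 fell and 1 rose (median -0.21 on the log2 scale), with Plk1, the kinase that drives entry into mitosis, at 124, 129 and 119.9 CPM in normoxia and 80.0, 85.1 and 83.5 CPM in hypoxia (log2 change -0.59, SE 0.083, edgeR adjusted p = 5.14e-05). Hmmr, Cenpe and Ube2c fell by log2 changes of -0.56, -0.51 and -0.51, while the proliferation marker Mki67 (-0.17) did not pass. Of 46 DNA replication genes 14 fell and 7 rose (30.4% and 15.2%), against 21.6% and 22.2% of all genes tested. The polymerase subunit Pold2 fell (-0.51), and E2f1, a driver of S phase entry, rose (0.59). Against 22.2% and 21.6% of all genes tested, 14 rose and 2 fell of 24 genes of the p53 pathway (median 0.54). They included Trp53inp1 (1.57), Gadd45a (1.25), Mdm2, the ligase that degrades p53 (0.96), and the death promoters Bbc3 (0.87) and Bax (0.69). Trp53 itself rose by 0.31. Some of these genes, Cdkn1a among them, are known to respond to more than p53. In the BCL2 family 5 of 13 rose and 3 fell (38.5% and 23.1%).

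Genes of the integrated stress response, which the transcription factor ATF4 drives, rose to a moderate degree. Of 20 tested 13 rose and 2 fell (median 0.59), against 22.2% and 21.6% of all genes tested. Ddit3, the death-linked factor CHOP, stood at 45.7, 45.6 and 42.5 CPM in normoxia and 131, 113 and 113 CPM in hypoxia (log2 change 1.41, SE 0.091, edgeR adjusted p = 1.77e-08). Atf3 rose by 2.09, Ppp1r15a, which ends the response by restoring translation, by 1.47, and Trib3, an inhibitor of ATF4, by 1.11. Atf4 itself rose by 0.38. Chac1 (-0.06), Asns (-0.01) and Sesn2 (0.11) did not pass, and Cth, which makes cysteine, stood at 81.7, 90.1 and 75.7 CPM in normoxia and 56.6, 57.3 and 50.4 CPM in hypoxia and fell (log2 change -0.59, SE 0.114, edgeR adjusted p = 0.000781). In serine and one-carbon metabolism 7 of 17 rose and 4 fell (41.2% and 23.5%). Mthfd1l, a mitochondrial enzyme of formate production, stood at 114, 115 and 93.4 CPM in normoxia and 364, 373 and 339 CPM in hypoxia (log2 change 1.74, SE 0.091, edgeR adjusted p = 1.72e-09) and Pycr1, which makes proline, fell by a log2 change of -0.65. Amino acid transporters had 10 rising and 5 falling of 23 (43.5% and 21.7%), with Slc38a2 up by 0.64 and Slc43a2 down (-1.12).

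Chaperones and stress genes of the endoplasmic reticulum fell more often than they rose. Of 26 members 3 rose and 10 fell (11.5% and 38.5%), against 22.2% and 21.6% of all genes tested. Pdia4, Pdia6 and Calr fell by log2 changes of -0.50, -0.49 and -0.31. The chaperone Hspa5 had a log2 change of -0.06 (edgeR adjusted p = 0.366). Heat shock genes had 6 rising and 6 falling of 22 (27.3% each), near the 22.2% and 21.6% over all genes tested. Hsph1, a cytosolic co-chaperone, stood at 344, 345 and 307 CPM in normoxia and 174, 170.1 and 174 CPM in hypoxia (log2 change -0.94, SE 0.076, edgeR adjusted p = 2.06e-07). The mitochondrial chaperonins Hspd1 and Hspe1 fell by log2 changes of -0.44 and -0.48, and the small heat shock protein Cryab rose by 1.10. Of 20 cytosolic tRNA synthetases 8 rose and 2 fell (40.0% and 10.0%), or 3 and 4 with counts scaled by library size alone. Ribosome biogenesis had 8 rising and 9 falling genes of 41 (19.5% and 22.0%), close to the 22.2% and 21.6% over all genes tested. Cytosolic ribosomal proteins had 19 rising and 3 falling of 78 (24.4% and 3.85%), or 7 and 4 by library size alone. Ribosomal protein genes have many processed copies, so their counts are uncertain.

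Sterol synthesis rose at most steps. Of 30 genes of cholesterol synthesis and uptake 25 rose and 0 fell (median 0.70), against 22.2% and 21.6% of all genes tested. Insig1, the sterol-sensing brake of the pathway, stood at 29.5, 31 and 31.3 CPM in normoxia and 96.9, 108 and 89.7 CPM in hypoxia (log2 change 1.68, SE 0.108, edgeR adjusted p = 2.07e-08). Lss, which makes lanosterol, and Cyp51, which demethylates it with oxygen, rose by 1.54 and 1.13, and Sqle, which uses oxygen to make squalene epoxide, stood at 160.1, 165 and 146 CPM in normoxia and 373, 406 and 366 CPM in hypoxia (log2 change 1.28, SE 0.07, edgeR adjusted p = 2.91e-09). The master regulator Srebf2 rose by 0.48. Fatty acid and lipid droplet genes had 15 rising and 3 falling of 25. Hilpda, an inhibitor of lipid breakdown on droplets, stood at 7.74, 8.15 and 6.68 CPM in normoxia and 41.6, 37.4 and 36.1 CPM in hypoxia (log2 change 2.36, SE 0.093, edgeR adjusted p = 6.61e-11). The desaturase Scd2, which needs oxygen, stood at 1658, 1575 and 1651 CPM in normoxia and 3734, 4051 and 3641 CPM in hypoxia (log2 change 1.23, SE 0.065, edgeR adjusted p = 2.07e-09), the droplet coat protein Plin2 rose by 0.82 and Gpam, an early step of glycerolipid making, fell by a log2 change of -0.53.

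Lysosomal genes rose in number, though each by less than 2-fold apart from the protease gene Ctsf. Of 34 tested 25 rose and 3 fell (median 0.50), against 22.2% and 21.6% of all genes tested. Lamp1, a main membrane protein of the lysosome, stood at 427, 472 and 458 CPM in normoxia and 803, 813 and 768 CPM in hypoxia (log2 change 0.81, SE 0.062, edgeR adjusted p = 1.28e-07). The proton pump subunit Atp6v0b, the neuraminidase Neu1 and the protease Ctsd rose by 0.83, 0.82 and 0.64.

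Interferon-stimulated genes fell. Of 30 tested 19 fell and 3 rose (median -0.51), against 21.6% and 22.2% of all genes tested. Ifit1, an antiviral sensor of RNA, stood at 8.67, 9.45 and 9.46 CPM in normoxia and 3.79, 4.01 and 3.66 CPM in hypoxia (log2 change -1.27, SE 0.109, edgeR adjusted p = 4.2e-07). Tap2 and Tap1, which load peptides for antigen presentation, fell by log2 changes of -0.89 and -0.60, and Gbp3 by -1.20. The class I antigen H2-K1 went the other way, standing at 29.6, 29 and 30.9 CPM in normoxia and 109, 97.8 and 98 CPM in hypoxia (log2 change 1.77, SE 0.084, edgeR adjusted p = 6.11e-10). Among chemokines and cytokines 8 rose and 6 fell of 22 (36.4% and 27.3%), against 22.2% and 21.6% of all genes tested. Cxcl14 stood at 126, 123 and 152 CPM in normoxia and 34.8, 34.9 and 32.4 CPM in hypoxia (log2 change -1.98, SE 0.121, edgeR adjusted p = 1.99e-08). Cxcl1 and Cxcl10 fell by log2 changes of -1.23 and -1.10, and Mif and Ptx3 rose by 1.71 and 0.97. Of the words of Mif, 40.5% recur in another annotated gene. In the NF-kB list the feedback inhibitors Tnfaip3 and Nfkbiz rose by 1.23 and 1.14 and the subunit Rela by 0.61, while Nfkbia (0.08) and Nfkb1 (0.07) did not pass.

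Genes of TGF-beta and BMP signalling changed in both directions. Of 32 genes 12 rose and 9 fell, or 7 and 10 with counts scaled by library size alone. The shares in the main fit were 37.5% and 28.1%, against 22.2% and 21.6% of all genes tested. Tgfb3 stood at 249, 239 and 253 CPM in normoxia and 127, 129 and 133 CPM in hypoxia and fell (log2 change -0.93, SE 0.13, edgeR adjusted p = 9.39e-05), Bmp2 fell by a log2 change of -0.78 and the BMP target Id3 by -0.74. The activin subunit Inhba and the BMP antagonist Grem1 rose by 1.04 and 1.42. In the IGF system Igfbp4 rose by 1.32, the receptor Igf1r by 0.65, and Igfbp5 stood at 21.5, 18.7 and 19.9 CPM in normoxia and 8.65, 9.27 and 10.5 CPM in hypoxia and fell (log2 change -1.08, SE 0.16, edgeR adjusted p = 0.000124).

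The genes with the largest increases among those averaging at least 10 CPM in a group included several that were barely present in normoxia. Gpr35 (ENSMUSG00000026271, chromosome 1 from 92950865 to 92986391), a G protein-coupled receptor, stood at 0.126, 0.0 and 0.124 CPM in normoxia and 22.4, 19.2 and 20.7 CPM in hypoxia. In counts the normoxia libraries held 3, 0 and 4 reads, so its fitted log2 change of 7.80 (SE 0.282, edgeR adjusted p = 2.98e-11) depends on the prior count. Mettl7b, a methyltransferase-like membrane protein, stood at 0.337, 0.477 and 0.278 CPM in normoxia and 17, 15.5 and 14.8 CPM in hypoxia (log2 change 5.45, SE 0.163, edgeR adjusted p = 3.93e-12). Acap1, an endosomal protein, stood at 0.421, 0.867 and 0.896 CPM in normoxia and 33, 33.2 and 31.7 CPM in hypoxia (log2 change 5.45, SE 0.168, edgeR adjusted p = 4.93e-12). Selenbp1 at 0.715, 1.04 and 1.14 CPM in normoxia and 31.5, 32.2 and 27.9 CPM in hypoxia and Gpnmb, a transmembrane glycoprotein, at 0.21, 0.477 and 0.711 CPM in normoxia and 13.3, 14.8 and 11.7 CPM in hypoxia followed (log2 changes 4.95 and 4.75). Ankrd37, a gene named for its ankyrin repeats, rose by 4.36, the copper pump Atp7b by 3.96 and the mitochondrial adenylate kinase Ak4 by 3.69. Bnip3, Car12, Ndrg1 and Egln3, described above, make up the 12. Groups without overlap were a condition for entry to these 12.

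By the same rule Angptl7 had the largest decrease. Angptl7 (ENSMUSG00000028989, chromosome 4 from 148495183 to 148500460), a secreted angiopoietin-like protein, stood at 17, 21 and 30.4 CPM in normoxia and 0.0, 0.138 and 0.174 CPM in hypoxia. The hypoxia libraries held 0, 4 and 5 reads, so the fitted log2 change of -7.58 (SE 0.433, edgeR adjusted p = 1.1e-07) depends on the prior count. Ogn, a small proteoglycan of the matrix, stood at 62.9, 80.9 and 81.6 CPM in normoxia and 12.9, 13.8 and 15.4 CPM in hypoxia (log2 change -2.42, SE 0.225, edgeR adjusted p = 8.61e-06). Fmnl1, an actin-organising formin, stood at 10.9, 10.5 and 12.8 CPM in normoxia and 1.36, 2.21 and 2.13 CPM in hypoxia (log2 change -2.56, SE 0.165, edgeR adjusted p = 1.87e-08). The selenium carrier Selenop fell by a log2 change of -2.35, the guidance cue Sema3a by -2.07, the WNT enhancer Rspo1 by -1.97 and the secreted protease Prss12 by -1.79. The transcript C430049B03Rik, annotated as a processed transcript, fell by a log2 change of -2.18. Tgm2, Cxcl14 and Egr1, described above, also belong here, and groups without overlap were again a condition for entry. The count of Selenbp1 is uncertain, since 52.3% of its 50-base words recur elsewhere in the annotation. For other genes named here the recurring share is 54% in Prelid1, 45.5% in Mt2, 44.8% in Hspd1, 36.6% in Ctsd and 36.3% in Timp3.

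The response of the WT libraries to the same 24 hours was used only to see where that of the TAZKo libraries differed. Of the 6310 TAZKo calls 5147 (81.6%) were also called in WT in the same direction, which is 70.2% of the 7330 WT calls (50.9% of genes tested). A test of the difference itself, TAZKo response minus WT response, passed for 384 of 14408 genes (2.67%), 123 where the TAZKo response was the higher (0.854%) and 261 where it was the lower (1.81%), and 2275 genes (15.8%) had an unadjusted p under 0.05. Lower TAZKo responses were the more frequent in the main fit and in most other settings. With the replicate block 299 were higher and 389 lower (688 in all). The order was reversed without WT hypoxia library 1 (352 higher and 333 lower) and with no filter on low counts (400 and 327). The count of differences was 579 without WT normoxia library 1, which stood apart from the others on the third principal component, 0 in lane 4 alone and 800 in lane 5 alone.

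In the ATF4 list 13 of 20 had a lower response and 0 a higher, and in the cholesterol list 16 of 30 had a lower and 1 a higher, against 1.81% lower and 0.854% higher over all genes. Without WT normoxia library 1 these were 14 lower in the ATF4 list and 17 in the cholesterol list. For Trib3 the log2 change was 1.11 in TAZKo and 2.89 in WT (difference -1.79, SE 0.163, edgeR adjusted p = 9.24e-05). For Cyp51 it was 1.13 against 2.15 (difference -1.02, SE 0.133, edgeR adjusted p = 0.00107). Cth rose in WT by 0.68 while it fell in TAZKo (difference -1.27, SE 0.173, edgeR adjusted p = 0.00135). The angiogenic list had 7 of 24 members with a lower response. Vegfa was among them, at 116, 106 and 111 CPM in normoxia and 308, 301 and 295 CPM in hypoxia in TAZKo cells and 63.3, 52.6 and 47.3 CPM in WT normoxia and 330.5, 351 and 383 CPM in WT hypoxia (difference -1.27, SE 0.125, edgeR adjusted p = 0.000103).

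Of 17 glycolytic enzymes 1, Aldoa, had a higher TAZKo response (difference 0.49, SE 0.096, edgeR adjusted p = 0.014) and 0 a lower, against 0.854% higher and 1.81% lower over all genes. A difference that did not pass does not show that the responses were alike. Among genes with a difference and the largest TAZKo changes, Bnip3 (0.45, SE 0.109, edgeR adjusted p = 0.043), Atp7b (1.0, SE 0.205, edgeR adjusted p = 0.0171), Ak4 (0.45, SE 0.097, edgeR adjusted p = 0.0254) and Pgm1 (0.33, SE 0.079, edgeR adjusted p = 0.0384) rose more in TAZKo. Ciart (-1.27, SE 0.177, edgeR adjusted p = 0.00144), Selenbp1 (-0.99, SE 0.248, edgeR adjusted p = 0.0487), Ero1l (-0.67, SE 0.126, edgeR adjusted p = 0.0108) and Gbe1 (-0.58, SE 0.138, edgeR adjusted p = 0.038) rose less. Of these 8, Ciart and Ero1l passed with each of the 12 libraries left out in turn, while the others lost the call without between 3 (Atp7b) and 10 (Bnip3) of them, with the highest edgeR adjusted p = 0.211 for Selenbp1. Normoxia levels differed as well for some of these genes: Atp7b averaged 1.72 CPM in TAZKo and 7.59 CPM in WT normoxia, and 27.0 and 59.1 CPM in hypoxia.

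**Figure D5:**
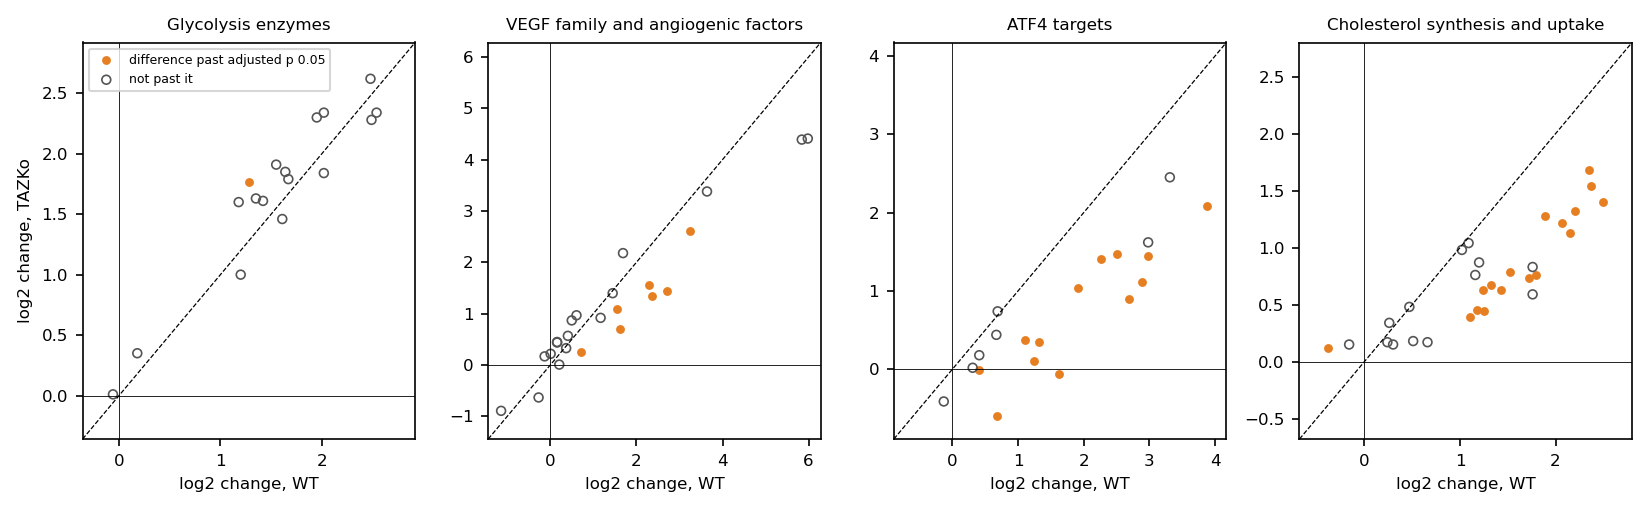
Log2 change between hypoxia and normoxia in the TAZKo libraries (vertical) against that in the WT libraries (horizontal) for members of 4 lists, with equality as a dashed line. Orange points passed the test of the difference: 1 of 17 glycolysis enzymes lies above the line, 7 of 24 angiogenic factors and 13 of 20 ATF4 targets lie below it, and in the cholesterol list 16 of 30 lie below and 1 above.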

How the data were processed

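The authors deposited 1 table of raw read counts per gene for each of the 12 libraries, made with the TruSeq RNA v2 kit from Trizol-extracted RNA, per the labels. The kit does not mark strand, so overlapping and antisense genes cannot be told apart. The build was mm10, per the submitters' processing notes, and the aligner and counter are not given in the sources used here. Of 48709 gene IDs, 48349 matched GENCODE M21 and took its symbols, and 360 stayed without one.

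Counts as deposited were filtered with filterByExpr, scaled by TMM (trimmed mean of M values) and fitted with edgeR 4.0.16 (R 4.3.3, limma 3.58.1) by robust quasi-likelihood, with 12 libraries and 1 coefficient per group. P-values were Benjamini-Hochberg adjusted over all 14408 genes tested, with a threshold of 0.05. The standard error (SE) is the log2 change divided by the square root of F. The test of the difference is the contrast of the TAZKo and WT responses, which share no samples. The fit was also run on simulated counts in which few genes changed, evenly up and down. That run does not cover a response as broad as the one here. DESeq2 1.42.0, other scalings, filters, lane settings and libraries left out were alternatives. Lanes come from file names.

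Genes are named by rule: Taz, the 12 largest increases and decreases with at least 10 CPM in a group and no overlap, up to 3 per list and direction, paralogs, other list members with their values, and the 8 genes with a difference from WT and the largest TAZKo change. A few genes that the rule names are not reported here. The members and lists were chosen with earlier results of these data known, and some lists share genes. Promoter windows (250 bases before to 50 after the start) were matched by symbol for 10300 genes tested. Shared sequence is the percentage of a gene's 50-base words found in another annotated gene.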

Additional observations from a re-analysis of the deposited data

Results flagged for a closer look

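For 44 of the genes named, the hypoxia response of the TAZKo libraries differed from that of the WT libraries by the edgeR test of the difference (adjusted p under 0.05). Each value is the TAZKo log2 change minus the WT log2 change, and 2.67% of all genes tested passed this test. Of the 44, 29 also passed with each library left out in turn.

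The stress response genes named here that passed had these values: Trib3 -1.79, Atf3 -1.78, Chac1 -1.68, Cth -1.27, Sesn2 -1.12, Ppp1r15a -1.04, Ddit3 -0.85, Atf4 -0.72, Mthfd1l -0.58 and Asns -0.42. In growth arrest genes the difference was -1.21 for Gadd45a and -1.17 for Cdkn1a. Sterol and lipid genes gave -1.02 for Cyp51, -0.83 for Lss, -0.67 for Insig1, -0.60 for Sqle, -0.52 for Idh1 and -0.59 for Hilpda. In the vessel growth genes it was -1.27 for Vegfa, -1.02 for Pgf and -0.74 for Flt1.

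Lower values were also measured for Ccn2 (-1.75), Ciart (-1.27), Sema3a (-1.20), Egr1 (-1.15), Car9 (-1.08), Selenbp1 (-0.99), Cxcl10 (-0.92), H2-K1 (-0.74), Ero1l (-0.67), Tnfaip3 (-0.66), Gbe1 (-0.58) and Per3 (-0.52). Values above 0 were measured for Fmnl1 (1.14), Atp7b (1.0), Slc4a4 (0.81), Cyp2s1 (0.77), Krt14 (0.64), Plod1 (0.58), Aldoa (0.49), Ak4 (0.45), Bnip3 (0.45), P4ha1 (0.38) and Pgm1 (0.33). For Sema3a, Egr1, Cxcl10 and Per3, which fell in TAZKo, the negative value is a deeper fall than in WT, and for Fmnl1 the positive value is a shallower one.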

How the results depend on the processing

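All 6310 calls in TAZKo kept their direction under each alternative in which they had a value, except 2 in lane 4 alone (with a mean of at least 5 CPM, 4956 had a value). The alternatives reuse the libraries that gave the calls, so kept directions are no independent check. The cause of the changes below was not tested. Lane 4 and lane 5 each leave 3 libraries per genotype, and the 5 CPM minimum leaves fewer genes tested. In lane 4 alone 1006 genes passed, 665 rising and 341 falling, with 447 and 157 at 2-fold or more, the list members that passed were 143 rising and 38 falling, and Taz had a log2 change of -0.38 (edgeR adjusted p = 0.215). Of 208 named genes that passed, 147 also passed in lane 4 alone, and 1 lost its call in fits with all libraries, Krt18 by library size alone. With at least 5 CPM, 355 genes rose and 103 fell by 2-fold or more. Leaving out 1 library gave 5229 to 7617 calls, 2689 to 3783 rising and 2540 to 3834 falling, and a log2 change of Taz from -0.36 to -0.26. The highest count, 7617, was without WT normoxia library 1, and the WT libraries enter the estimate of spread in the main fit. A fit on the 6 TAZKo libraries only gave 7907 calls, 3918 rising and 3989 falling.

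Differences from WT depended more on the setting than the response itself did: 384 were called, 727 with no filter, 0 in lane 4 alone, 800 in lane 5 alone, 574 with DESeq2 and 177 to 685 with 1 library left out. The extremes were 177 without TAZKo normoxia library 2 and 685 without WT hypoxia library 1. With the replicate block, 7016 genes were called in TAZKo and 688 differences from WT. Same-numbered TAZKo samples deviated together weakly (r from -0.024 to 0.095 over 3 pairs, against -0.096 to 0.067 for different numbers), so the numbers were not taken to pair the TAZKo samples. The 3 same-numbered WT pairs deviated together (r of 0.368, 0.204 and 0.152), as did the TAZKo and WT normoxia pairs (0.354, 0.149 and 0.228). WT hypoxia library 2 with WT normoxia library 3 (0.18) and hypoxia 3 with normoxia 2 (0.147) did so too. WT pairs of library 1 with library 2 or 3 ran from -0.28 to -0.202. These WT values set library 1 apart from 2 and 3 and do not show pairing by number. The blocked count of differences from WT, 299 higher and 389 lower, is given beside the unblocked one. All 208 named calls were kept under the block. The alternatives that leave out members under 1 CPM and processed pseudogenes were chosen after seeing the data. Depth limits genes near 3 counts a library.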

Other observations

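Long noncoding RNA genes and several protein-coding genes outside the lists also changed. They were chosen after their values were seen, so they are a description. Of 361 long intergenic noncoding genes tested, 61 (16.9%) rose at least 2-fold and 11 (3.05%) fell at least 2-fold, against 5.03% and 2.07% of 12336 protein-coding genes. The share rising at least 2-fold was also above 5.03% in antisense genes (9.66%) and processed transcripts (7.56%). It was lower in sense intronic genes (2.78%) and snoRNA genes (0.0%). The classes were not matched for expression level. The transcript Mirt1 stood at 2.19, 2.69 and 2.19 CPM in normoxia and 14.8, 13.5 and 16.3 CPM in hypoxia (log2 change 2.66, SE 0.151, edgeR adjusted p = 4.43e-09), and F730043M19Rik at 22, 20.4 and 17.8 CPM in normoxia and 73.6, 71.2 and 74 CPM in hypoxia (log2 change 1.87, SE 0.101, edgeR adjusted p = 2.7e-09). Neither gene had overlapping groups.

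Fam162a, a mitochondrial protein linked to cell death in hypoxia, stood at 66.1, 63.5 and 59.6 CPM in normoxia and 634, 591 and 614 CPM in hypoxia (log2 change 3.28, SE 0.071, edgeR adjusted p = 9.38e-14). The keratin gene Krt19 stood at 60.3, 56.6 and 52.5 CPM in normoxia and 313, 307 and 282 CPM in hypoxia (log2 change 2.41, SE 0.106, edgeR adjusted p = 2.88e-10). Ampd3, an AMP deaminase, stood at 9.13, 9.06 and 9.95 CPM in normoxia and 74.9, 85.3 and 71.1 CPM in hypoxia (log2 change 3.04, SE 0.112, edgeR adjusted p = 3.47e-11), and Cyp2s1, a cytochrome P450, at 43.6, 42.6 and 42.8 CPM in normoxia and 230.2, 249 and 222 CPM in hypoxia (log2 change 2.44, SE 0.075, edgeR adjusted p = 4.93e-12). All 3 hypoxia libraries lay above all 3 normoxia libraries in these 4 genes.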
